A study of Mus musculus with 12 samples.

Results

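The genes described here are 10 components of the Notch pathway: the receptors *Notch1*, *Notch2* and *Notch3*, the ligands *Dll1*, *Dll3* and *Jag1*, and the target genes *Hes1*, *Hes5*, *Hey1* and *Hey2*. They were chosen by name from the gene column that the count tables of both mouse lines share, and all 10 were found among the 23420 genes listed. RNA-seq was carried out on 12 whole mouse embryos of embryonic day E12.5, each giving 1 library. In the *Carm1* line, 3 embryos homozygous for a knockout allele (*Carm1* KO/KO, deletion of exons 2 and 3 in all cells) were compared with 3 wild-type embryos on a C57BL/6 background. In the *Pax3* line, 3 embryos homozygous for the Splotch allele Sp2H (*Pax3* Sp2H/Sp2H) were compared with 3 wild-type embryos from a closed colony of mixed background. Mutants and wild types of a line came from intercrosses of heterozygous mice, and the litters are not given in the sources used here. The lines differ in allele, strain and breeding place, so a difference between them cannot be told apart from these.

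Notch signaling passes between neighboring cells. A Delta or Jagged ligand on one cell binds a Notch receptor on the next, the receptor is cleaved, and its intracellular domain enters the nucleus, where it joins the DNA-binding protein RBPJ and switches on genes of the Hes and Hey families. These encode repressors that hold neural progenitors undifferentiated, and the same pathway acts in forming somites, vessels and the heart. CARM1 is an arginine methyltransferase that acts as a transcriptional coactivator, and PAX3 is a transcription factor of the dorsal neural tube, neural crest and somites.

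*Hes5* is a target that RBPJ is known to bind directly. Of the 10 genes, 8 have a promoter entry in the RefSeq table of GRCm38.p6. The RBPJ core, TGGGAA read on either strand, was searched in the 250 bases before each RefSeq start. It was found for *Hes5* and *Hey2* and in none of the windows of *Notch1*, *Notch2*, *Notch3*, *Dll1*, *Dll3* and *Jag1*. RefSeq starts can lie inside the gene spans given below, as for *Notch1* (window 26503823 to 26504072), and *Dll1* has more than 1 window. At least 1 such core was present in 21.6% of the 32851 mouse promoter windows of this length, and at least 2 in 2.77%. The sequences of both genes are shown because these are the targets called in at least 1 line, with the core in capitals, 5′ to 3′ on the strand of the gene. The *Hes5* window (chr4:154960673-154960922, + strand) held 2 cores, beginning 226 and 82 bases before the start. The *Hey2* window (chr10:30842784-30843033, - strand) held 1, beginning 207 bases before it. No N box (CACNAG on either strand, the site that Hes proteins bind, present in 36.7% of all windows) was found in either. These matches describe letters and do not show binding.
Hes5: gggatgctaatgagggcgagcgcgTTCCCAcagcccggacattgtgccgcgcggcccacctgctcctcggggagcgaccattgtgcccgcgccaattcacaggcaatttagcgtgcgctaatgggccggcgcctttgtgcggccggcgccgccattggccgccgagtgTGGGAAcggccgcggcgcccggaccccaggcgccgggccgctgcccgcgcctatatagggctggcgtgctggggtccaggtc
Hey2: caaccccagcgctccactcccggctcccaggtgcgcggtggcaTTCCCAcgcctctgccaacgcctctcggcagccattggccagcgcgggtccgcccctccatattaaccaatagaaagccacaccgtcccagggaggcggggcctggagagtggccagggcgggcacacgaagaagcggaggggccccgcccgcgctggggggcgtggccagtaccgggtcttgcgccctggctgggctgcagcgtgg

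Library totals lay between 17183344 and 23518692 counts. Levels are counts scaled to library size (CPM) after TMM scaling in edgeR. *Carm1* was at 69.3 to 76.2 CPM in *Carm1* KO/KO libraries and at 137 to 151 CPM in those of wild types. *Pax3* was at 18.1 to 22.4 CPM in *Pax3* Sp2H/Sp2H libraries and at 25.0 to 30.9 CPM in those of wild types. The mutated gene was thus lower in every mutant library than in any wild type of its line. *Pax3* was higher in *Carm1* KO/KO libraries, at 27.4 to 30.4 CPM against 20.5 to 24.2 CPM in wild types (edgeR FDR adjusted *P* = 0.0010). *Carm1* was not called in the *Pax3* line (0.38). Counts on Y-linked genes, at least 100 in a library, were found in wild-type replicate 3 of the *Carm1* line and, in the *Pax3* line, in Sp2H/Sp2H replicate 3 and wild-type replicates 2 and 3. In the *Pax3* line fold changes also moved with transcript length, from a median log2 fold change of 0.17 in the bin of genes with the shortest transcripts to -0.10 in that with the longest (4 bins of equal size). The corresponding medians in the *Carm1* line were 0.013 and -0.010.

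In *Carm1* KO/KO embryos 4 of the 10 genes rose: the target *Hes5*, the ligands *Dll1* and *Dll3*, and the receptor *Notch1*. None fell at an FDR adjusted *P* below 0.05 in edgeR's quasi-likelihood test (DESeq2 gave the same 4 and none lower), and *Hes1*, at a log2 fold change of -0.06 and an unadjusted *P* of 0.36, was the only gene with a negative value. The call of *Notch1* was lost in 6 of 16 alternatives, among them the term for Y-linked counts. In the study's own DESeq2 results for this line *Notch1* was not past that threshold. Of all 15811 genes tested in this line, 13.3% were called, with 5.49% higher and 7.83% lower in mutants. Over the 10 genes the median was 0.16 on the log2 scale, against 0.0014 for all genes tested. In *Pax3* Sp2H/Sp2H embryos *Hes5* rose and *Hey2* fell, both calls being lost with a term for Y-linked counts and with length and GC offsets, which is 2 of 10, where 24.5% of all 15724 genes tested were called, 14% as higher and 10.5% as lower. There the median of the 10 genes was 0.0038. The *Pax3* share is close to the background. In the reported fits, which hold neither that term nor the offsets, *Hes5* was the only one of the 10 called as higher in both lines. Without mutant replicate 3 of the *Pax3* line *Dll3* was called as higher there too. Of the 15461 genes tested in both, 1.12% were called as higher in each. None of the 10 was called as lower in both (1.21% of all genes). The groups did not overlap for 4 of the 10 genes in the *Carm1* line (30% of all genes tested) and for 3 of the 10 in the *Pax3* line (39.6%). As the RNA came from whole embryos, fewer cells of a type and less RNA per cell cannot be told apart.

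**Figure D1:**
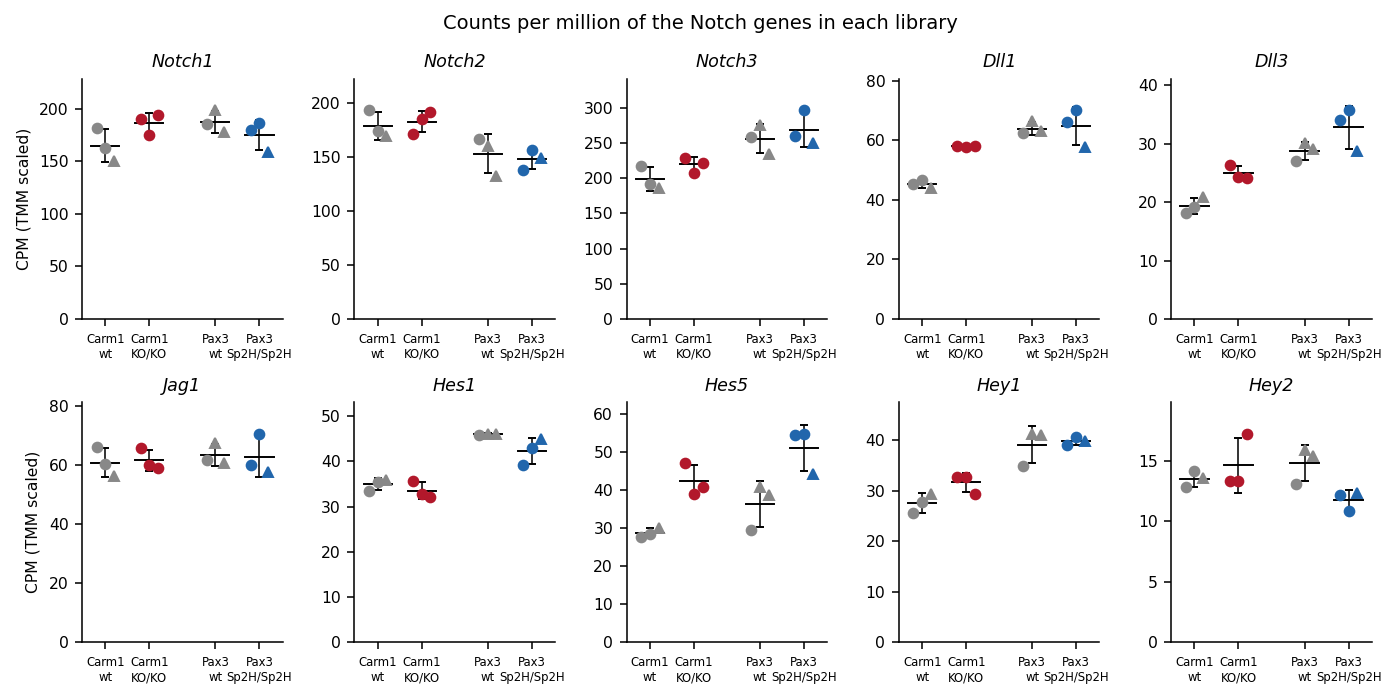
TMM-scaled CPM (vertical axes, from 0) of the 10 Notch genes in each of the 12 libraries, with wild types in grey, *Carm1* KO/KO in red and *Pax3* Sp2H/Sp2H in blue, lines for the mean and bars for the SD of 3 libraries, and triangles for libraries with Y-linked counts. The 3 *Carm1* KO/KO libraries lie above the 3 wild-type libraries for *Dll1*, *Dll3*, *Hes5* and, by a hair, *Hey1*, and the *Pax3* Sp2H/Sp2H libraries lie above wild type for *Hes5* and below it for *Hes1* and *Hey2*.

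Among the receptors, *Notch1* (chromosome 2, 26457903 to 26516663, - strand) is the receptor most widely used in the embryo. *Carm1* KO/KO embryos had 190.2, 175 and 194 CPM of it, and wild types 182, 163 and 151 CPM. The groups overlapped, as wild-type replicate 1 lay above mutant replicate 2. The log2 fold change was 0.18 (95% interval 0.059 to 0.30, edgeR FDR adjusted *P* = 0.043). The wild-type library with Y-linked counts was the lowest of the 6. With a term for Y-linked counts the log2 fold change was 0.12 (edgeR FDR adjusted *P* = 0.13), and the call was also lost in one fit of all 12 libraries (0.084) and without mutant replicate 1 (0.16), mutant replicate 3 (0.16), wild-type replicate 2 (0.14) or wild-type replicate 3 (0.12).

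In the *Pax3* line *Notch1* stood at 179.7, 186 and 159 CPM in mutants and at 185, 199 and 178 CPM in wild types. The groups overlapped, with a log2 fold change of -0.10 (95% interval -0.22 to 0.024, edgeR FDR adjusted *P* = 0.24). With length and GC offsets and a term for Y-linked counts together, *Notch1* passed the threshold as lower in this line (edgeR FDR adjusted *P* = 0.042). The difference between the lines, tested as an interaction over all 12 libraries, was 0.28 on the log2 scale (95% interval 0.097 to 0.47, edgeR FDR adjusted *P* = 0.030). Among all 16292 genes in that test, 19.1% differed between the lines.

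*Notch2*, a receptor on chromosome 3 (98013527 to 98150361, + strand) with roles in kidney, liver and vessel development, was measured at 171, 185 and 191 CPM in *Carm1* KO/KO libraries and at 193, 173 and 169 CPM in those of wild types. Its libraries were intermixed, and the log2 fold change was 0.033 (95% interval -0.068 to 0.14). The libraries of the *Pax3* line gave 138, 156 and 149 CPM in mutants and 166, 160.0 and 132 CPM in wild types. Here too the groups overlapped (log2 fold change -0.051, 95% interval -0.20 to 0.10). *Notch3* (chromosome 17, 32120820 to 32166852, - strand) is the receptor of vascular smooth muscle and is also expressed in the neural tube. The *Carm1* KO/KO libraries held 229, 207 and 222 CPM of it and the wild types 218, 192 and 186 CPM. Its highest wild-type library lay above the lowest mutant library, and the log2 fold change of 0.15 (95% interval 0.041 to 0.25) missed the threshold with an edgeR FDR adjusted *P* of 0.057. It passed the threshold in 5 of 16 alternatives, with values from 0.15 to 0.22. Across the *Pax3* line *Notch3* ranged from 249 to 297 CPM in mutants and from 235 to 275 CPM in wild types (log2 fold change 0.070, edgeR FDR adjusted *P* = 0.48). Of 10 mural and smooth muscle markers, 1 was higher and 4 were lower in *Carm1* KO/KO, and 3 were lower in *Pax3* Sp2H/Sp2H embryos. Over all genes tested, 5.49% were called as higher and 7.83% as lower in the *Carm1* line, and 10.5% as lower in the *Pax3* line.

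*Dll1* (chromosome 17, 15367354 to 15376872, - strand) encodes the ligand that newly formed neurons and the presomitic mesoderm present to their neighbors. It was measured at 58.1, 57.7 and 58.0 CPM in *Carm1* KO/KO libraries, against 45.4, 46.5 and 44.0 CPM in wild types. The mutant libraries differed among themselves by less than 1 CPM and stood apart from every wild type, as did 14.2% of all genes tested in that direction. *Dll1* rose by 0.35 on the log2 scale (95% interval 0.24 to 0.47, edgeR FDR adjusted *P* = 2.2e-05), a fold change of 1.28, and passed the threshold in all 16 alternatives.

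In *Pax3* Sp2H/Sp2H embryos *Dll1* was measured at 66.2, 70.1 and 57.7 CPM, against 62.3, 66.3 and 63.1 CPM in wild types. Mutants held both the highest and the lowest of these values, and the log2 fold change was 0.018 (95% interval -0.12 to 0.15, edgeR FDR adjusted *P* = 0.88). The response of *Dll1* differed between the lines by 0.35 (95% interval 0.17 to 0.52, edgeR FDR adjusted *P* = 0.0044), and this difference passed the threshold in each of its 19 alternatives.

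*Dll3* (chromosome 7, 28293553 to 28302238, - strand) encodes a divergent ligand that acts inside the cell as an inhibitor of Notch and is needed for forming somites. Mutants of the *Carm1* line had 26.3, 24.3 and 24.2 CPM and wild types 18.1, 19.1 and 20.8 CPM. Again each mutant lay above each wild type. The log2 fold change was 0.36 (95% interval 0.20 to 0.53, edgeR FDR adjusted *P* = 0.0021), past the threshold in all 16 alternatives. *Pax3* Sp2H/Sp2H embryos had 34.0, 35.7 and 28.7 CPM and their wild types 27.0, 30.1 and 29.1 CPM. Mutant replicate 3 fell among the wild types, and the log2 fold change of 0.19 (95% interval 0.011 to 0.37) had an edgeR FDR adjusted *P* of 0.11. Without that library it was 0.28 (edgeR FDR adjusted *P* = 0.042), and with length and GC offsets 0.022 (0.89). The difference of *Dll3* between the lines was 0.18 (95% interval -0.062 to 0.43, edgeR FDR adjusted *P* = 0.31), and 0.34 with the offsets (0.040), which passed the threshold. *Jag1* (chromosome 2, 137081456 to 137116644, - strand), the ligand of vessel, ear and heart development, ranged from 59.3 to 65.8 CPM in *Carm1* KO/KO and from 56.4 to 66.1 CPM in wild types, and from 57.8 to 70.8 CPM in *Pax3* Sp2H/Sp2H and from 60.7 to 67.6 CPM in wild types. Its log2 fold changes were 0.022 (95% interval -0.098 to 0.14) and -0.0100 (95% interval -0.15 to 0.13).

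**Figure D2:**
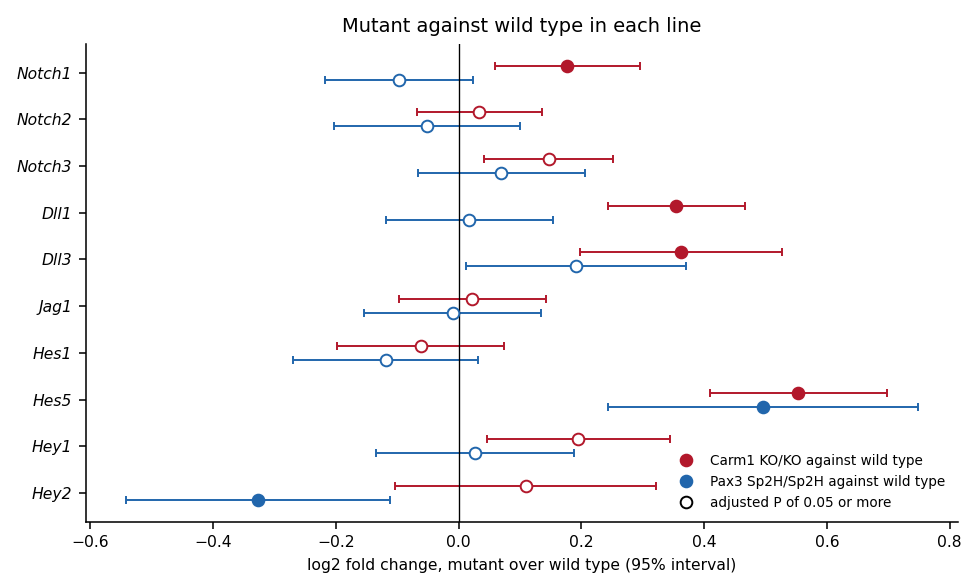
Log2 fold change of each of the 10 Notch genes (horizontal axis, mutant over wild type) with its 95% interval, in the *Carm1* line (red) and the *Pax3* line (blue), from edgeR fits of 3 libraries against 3. Filled points have an FDR adjusted *P* below 0.05, which holds for *Notch1*, *Dll1*, *Dll3* and *Hes5* in the *Carm1* line and for *Hes5* and *Hey2* in the *Pax3* line.

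*Hes5* (chromosome 4, 154960923 to 154962371, + strand) encodes a repressor that keeps neural progenitors from differentiating. It had the largest log2 fold change of the 10 genes in the *Carm1* line. It was measured at 47.1, 39.2 and 40.8 CPM in *Carm1* KO/KO libraries, against 27.8, 28.6 and 30.2 CPM in wild types. The lowest mutant lay well above the highest wild type. *Hes5* rose 1.47-fold, a log2 fold change of 0.55 (95% interval 0.41 to 0.70, edgeR FDR adjusted *P* = 9.3e-07), and between 0.47 and 0.61 over 16 alternatives, all past the threshold.

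In the *Pax3* line *Hes5* was measured at 54.5, 55.0 and 44.3 CPM in Sp2H/Sp2H embryos and at 29.5, 40.8 and 38.8 CPM in wild types. The mutants lay above the wild types without overlap, as did 20.7% of all genes tested in that direction. *Hes5* rose by 0.50 on the log2 scale (95% interval 0.24 to 0.75, edgeR FDR adjusted *P* = 0.0083). The libraries with Y-linked counts were the mutant at 44.3 CPM and the wild types at 40.8 and 38.8 CPM, which lay closer together than those without such counts, the mutants at 54.5 and 55.0 CPM and the wild type at 29.5 CPM. With a term for Y-linked counts the log2 fold change was 0.51 with an edgeR FDR adjusted *P* of 0.063. The transcript of *Hes5* has 1273 nt, which places it in the bin of the shortest transcripts, whose median was 0.17 in this line. With offsets fitted to transcript length and GC content in each library, its log2 fold change was 0.15 (edgeR FDR adjusted *P* = 0.29), and with offsets and the Y-linked term together 0.12 (0.49). The same offsets gave 0.56 in the *Carm1* line. The difference between the lines was 0.068 without offsets (95% interval -0.27 to 0.41, edgeR FDR adjusted *P* = 0.81) and 0.39 with them (0.068).

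*Hes1* (chromosome 16, 30064384 to 30067796, + strand) encodes a repressor that oscillates in progenitors and in the presomitic mesoderm. Values in the *Carm1* line overlapped, with 35.6, 32.8 and 32.1 CPM in mutants and 33.4, 35.4 and 35.9 CPM in wild types. Those in the *Pax3* line were 39.2, 43.0 and 44.8 CPM in mutants and 45.7, 46.1 and 46.1 CPM in wild types. These groups did not overlap, and 18.9% of all genes tested were separated in the same direction. The log2 fold change was -0.12 (95% interval -0.27 to 0.032, edgeR FDR adjusted *P* = 0.25), and with length and GC offsets -0.24 (edgeR FDR adjusted *P* = 0.016).

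*Hey1* (chromosome 3, 8663359 to 8667256, - strand) acts in heart and vessel development. Its levels were 32.8, 32.7 and 29.4 CPM in *Carm1* KO/KO libraries and 25.5, 27.9 and 29.4 CPM in wild types. The closest libraries of the groups were equal to the first decimal place, and the log2 fold change of 0.19 (95% interval 0.046 to 0.34) had an edgeR FDR adjusted *P* of 0.075. Without wild-type replicate 3, the library with Y-linked counts, it was 0.24 (edgeR FDR adjusted *P* = 0.035). Across the *Pax3* line *Hey1* ranged from 39.1 to 40.5 CPM in mutants and from 34.9 to 41.3 CPM in wild types (log2 fold change 0.027, 95% interval -0.13 to 0.19).

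*Hey2* (chromosome 10, 30832359 to 30842801, - strand) encodes a repressor of the ventricular myocardium and the arteries. It was measured at 12.2, 10.8 and 12.3 CPM in *Pax3* Sp2H/Sp2H libraries and at 13.1, 15.9 and 15.4 CPM in wild types. The mutants lay below the wild types without overlap. *Hey2* fell by 0.33 on the log2 scale (95% interval -0.54 to -0.11, edgeR FDR adjusted *P* = 0.023). The call was lost with a term for Y-linked counts (log2 fold change -0.27, edgeR FDR adjusted *P* = 0.065), with length and GC offsets (-0.28, 0.065), and without mutant replicate 1 (0.051), mutant replicate 2 (0.11), wild-type replicate 2 (0.080) or wild-type replicate 3 (0.077). The offsets and that term together gave *Hey2* -0.21 (edgeR FDR adjusted *P* = 0.17). Its level in the *Carm1* line was 13.3, 13.3 and 17.3 CPM in mutants and 12.8, 14.1 and 13.6 CPM in wild types. Mutant replicate 3 was the highest there, and the log2 fold change was 0.11 (95% interval -0.10 to 0.32). *Hey2* differed between the lines by 0.45 (95% interval 0.14 to 0.76, edgeR FDR adjusted *P* = 0.035), which a term for Y-linked counts brought to 0.39 (0.084).

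**Figure D3:**
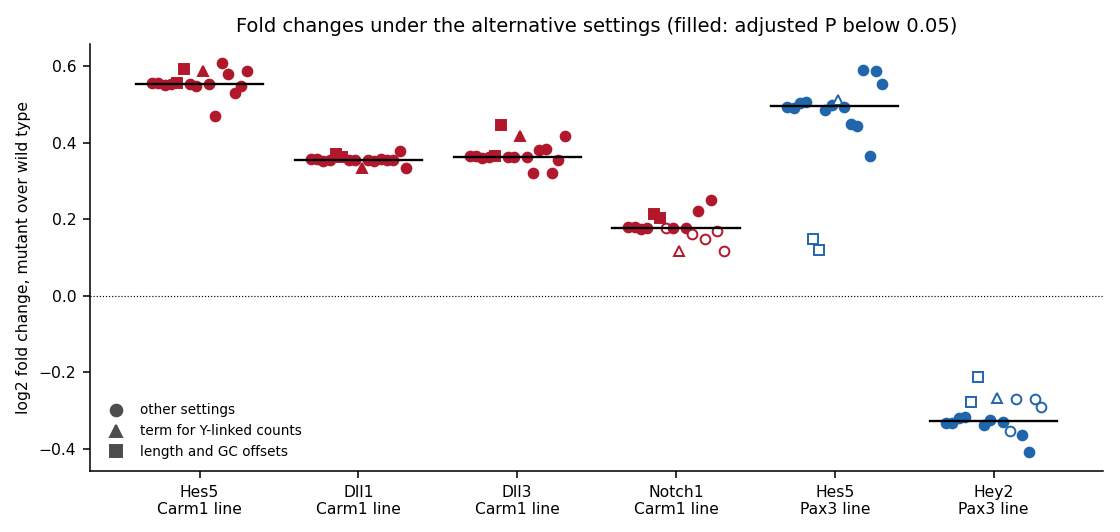
Log2 fold change (vertical axis) of the 6 results past the threshold, with the value as reported as a line and each alternative as a point, filled where its FDR adjusted *P* is below 0.05. *Hes5*, *Dll1* and *Dll3* in the *Carm1* line are filled throughout, whereas *Hes5* in the *Pax3* line drops to 0.15 with the length and GC offsets (squares) and is open with the Y-linked term (triangle).

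Per kilobase of exonic sequence, *Notch3* and *Hes5* had the highest levels of the 10 genes in all 4 groups and *Hey2* the lowest. Lengths here count all annotated exonic bases of a gene, 14232 for *Notch1* and 2037 for *Hes1*. The transcripts of these 2 genes used for the offsets have 9488 and 1468 nt. The order of genes can change with the length chosen, and levels per kb of transcript were not computed. In wild-type embryos of the *Carm1* line *Notch3* had 24.5 ± 2.09 and *Hes5* 21.2 ± 0.901 CPM per kb (SD, n = 3), and their ranges did not overlap. *Hes1* at 17.1 and *Notch2* at 16.5 CPM per kb followed and overlapped, as did *Notch1* at 11.6, *Dll1* at 10.7 and *Jag1* at 10.5 CPM per kb. *Hey1* at 8.45, *Dll3* at 6.79 and *Hey2* at 2.94 CPM per kb each stood apart from the next. In *Carm1* KO/KO embryos *Hes5*, at 31.1 ± 3.09 CPM per kb, was above *Notch3* at 27.1 ± 1.37 CPM per kb, with no overlap. *Dll1*, at 13.7 CPM per kb, was there above *Notch1* at 13.1 CPM per kb. For the *Pax3* line *Hes5* and *Notch3* overlapped in both groups, with 37.6 ± 4.43 and 33.2 ± 3.07 CPM per kb in mutants and 26.7 ± 4.42 and 31.6 ± 2.52 CPM per kb in wild types.

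Once each library was set against the mean of its group, 28 of the 45 pairs among the 10 genes were positively correlated over the 12 libraries, with a median Pearson's *r* of 0.12. These libraries share the 4 group means removed and any trend with transcript length, so the coefficients only describe them. The highest were *Notch3* with *Jag1* (0.91), *Notch1* with *Notch3* (0.90) and *Dll3* with *Hes5* (0.85), and the lowest was *Notch2* with *Hey1* (-0.61). Among all genes tested in both lines, the closest to *Hes5* were *Bphl* (0.94), *Fam188a* (0.93) and *Tfam* (0.93), the closest to *Dll1* were *Igdcc3* (0.96), *Xpnpep1* (0.95) and *Rnf26* (0.95), and the closest to *Dll3* were *Actl6a* (0.97), *Snord72* (0.96) and *Rtkn2* (0.91).

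The other 51 genes of the pathway were listed by role. In *Carm1* KO/KO embryos 8 of the 50 tested rose and 2 fell, with a median log2 fold change of 0.039, where 5.49% of all genes were called as higher and 7.83% as lower. With length and GC offsets 15 rose and 4 fell, where 1963 of all 15811 genes tested were called as higher and 1302 as lower. Without single libraries 3 to 10 rose and 1 to 3 fell, with the lowest counts without wild-type replicate 2. That fit called 509 of all 16018 genes tested as higher and 840 as lower, against 868 and 1238 in the reported fit. Only 5 rose without any 1 of the 3 mutants, where 469 to 579 of all genes tested were called as higher. In *Pax3* Sp2H/Sp2H embryos 11 of 51 rose and 7 fell, with a median of 0.068, where 14% of all genes were called as higher and 10.5% as lower. With the offsets 4 rose and 3 fell, where 1341 of all 15724 genes tested were called as higher and 1100 as lower. Without single libraries 4 to 12 rose and 4 to 6 fell, with 4 higher without mutant replicate 3. That fit called 1526 of all 15890 genes tested as higher, against 2198 in the reported fit.

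Several of the other pathway genes are known targets or feedback regulators. *Nrarp*, a target that destabilizes the Notch intracellular domain, was at 79.4, 79.5 and 73.0 CPM in mutants of the *Carm1* line and at 56.7, 56.7 and 58.5 CPM in wild types. The groups were far apart, with a log2 fold change of 0.43 (edgeR FDR adjusted *P* = 3.6e-07). Its log2 fold change in *Pax3* Sp2H/Sp2H embryos was 0.18 (edgeR FDR adjusted *P* = 0.043), and 0.13 with length and GC offsets (0.14). *Hes6*, a family member that promotes neuronal differentiation, rose by 0.30 in the *Carm1* line and by 0.33 in the *Pax3* line, where length and GC offsets left 0.021 (edgeR FDR adjusted *P* = 0.86). *Heyl*, a target of vascular smooth muscle and somites, fell by 0.52 in the *Pax3* line, from 28.7, 29.0 and 26.0 CPM in wild types to 19.8, 19.0 and 19.6 CPM in mutants, and passed the threshold in all 16 alternatives. *Hes2* in the *Carm1* line (log2 fold change 1.81) and *Hes3* in the *Pax3* line (1.57) were called from levels under 3 CPM in every library.

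Of the proteins that act with the receptor in the nucleus, *Spen*, a corepressor that binds RBPJ, rose by 0.46 in *Carm1* KO/KO embryos. *Rbpj* itself was measured at 132, 133 and 133 CPM in *Pax3* Sp2H/Sp2H and at 177, 165 and 176 CPM in wild-type libraries. All 3 mutants lay below all wild types, and *Rbpj* fell by 0.38 (edgeR FDR adjusted *P* = 5.7e-06), and by 0.26 with length and GC offsets (1.0e-04). Its log2 fold change in the *Carm1* line was 0.028 (edgeR FDR adjusted *P* = 0.75). The coactivator *Maml2* fell by 0.33 in the *Pax3* line, but not with the offsets (-0.22, edgeR FDR adjusted *P* = 0.071).

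Among the enzymes that modify receptors and ligands, the fringe genes *Lfng* and *Mfng*, which add sugars to Notch, rose in the *Carm1* line by 0.25 and 0.23. *Lfng* lost the call in 7 and *Mfng* in 4 of 16 alternatives. *Lfng* was also called in the *Pax3* line, at 0.27 (edgeR FDR adjusted *P* = 0.028), but not with length and GC offsets (0.12, 0.38). Among the *Pax3* embryos *Neurl1b*, a ubiquitin ligase for Notch ligands, rose by 0.52, *Dtx3*, of the Deltex family, by 0.39 (0.20 with the offsets, still past the threshold), and the gamma-secretase subunit *Psen2* by 0.37. *Psen2* lost the call in 7 of its 16 alternatives and *Neurl1b* in 2. The noncanonical ligands *Dlk1* and *Dner* fell by 0.29 each in *Carm1* KO/KO embryos, and *Dner* lost the call without wild-type replicate 2 (-0.21, edgeR FDR adjusted *P* = 0.053). *Dner* fell by 0.28 in the *Pax3* line as well (edgeR FDR adjusted *P* = 0.014), where the offsets gave -0.27 (0.054).

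**Figure D4:**
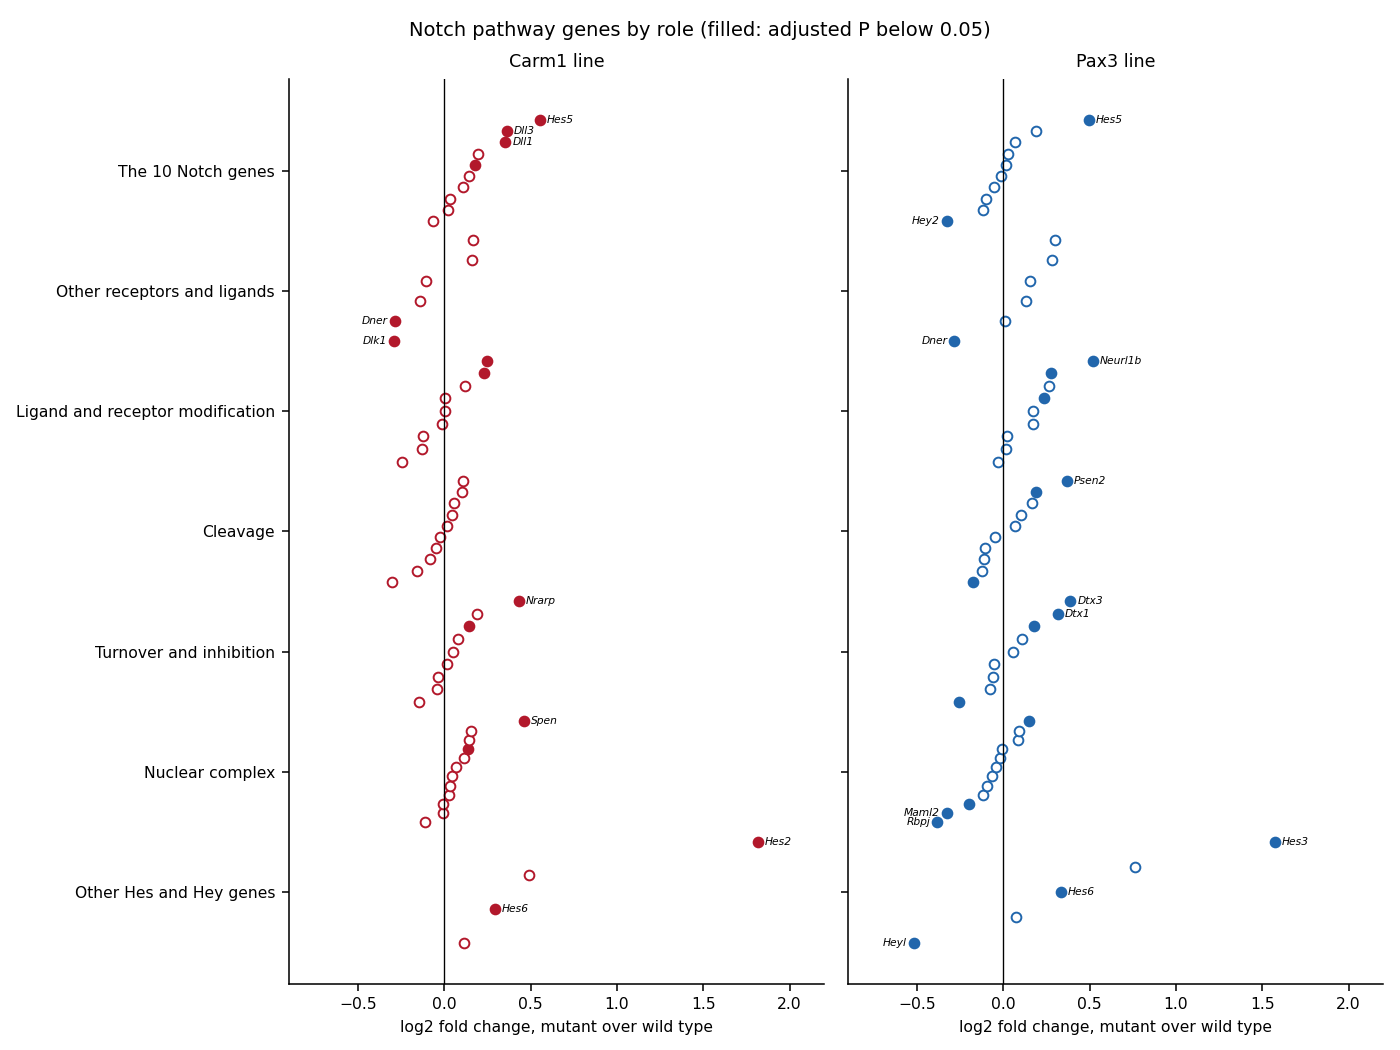
Log2 fold change, mutant over wild type (horizontal axes), of the 10 Notch genes and the other pathway genes grouped by role (vertical axis), in the *Carm1* line (left) and the *Pax3* line (right), each point 1 gene and filled where the FDR adjusted *P* is below 0.05. Of the 10 Notch genes, the 4 filled in the *Carm1* line are to the right of 0. In the *Pax3* line *Hes5* is to the right and *Hey2* to the left. Filled points of the other pathway genes lie on both sides, 8 right and 2 left (*Dlk1* and *Dner*) in the *Carm1* line. In the *Pax3* line 11 are to the right and 7 to the left, with *Rbpj*, *Maml2* and *Heyl* among the latter.

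Markers of the cells that express these genes moved as well. Over all genes tested, 5.49% were called as higher and 7.83% as lower in the *Carm1* line, and 14% and 10.5% in the *Pax3* line. Of 10 neural progenitor markers, 7 were higher and 1 was lower in *Carm1* KO/KO embryos, with a median log2 fold change of 0.32 and a summed level of 1371 to 1417 CPM against 1092 to 1157 CPM in wild types. *Nes* (0.43), *Sox2* (0.33) and *Fabp7* (0.37) were among those that rose, and no marker of this list was at 0. In *Pax3* Sp2H/Sp2H embryos 5 were higher and 1 was lower, with a median of 0.20 and a summed level of 1254 to 1385 CPM against 1185 to 1266 CPM, and 4 were higher with the length and GC offsets. In the *Carm1* line these markers were higher along with *Hes5*, *Dll1* and *Dll3*, and their part in the result was not tested. In the *Pax3* line *Hes5* itself was not past the threshold with the offsets.

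Of 8 proneural genes, whose products drive neuronal differentiation and induce *Dll1*, 3 rose in *Carm1* KO/KO embryos: *Neurog1* (0.53), *Neurod4* (0.71) and *Atoh1* (1.22, at 2.36 CPM or less). In *Pax3* Sp2H/Sp2H embryos *Insm1* (0.35) and *Neurog2* (0.25) rose, whereas *Neurod1* (-0.59) and *Neurod4* (-0.47) fell. With length and GC offsets only the fall of *Neurod1* (-0.51) passed the threshold there, and *Insm1* was at 0.19, *Neurog2* at 0.14 and *Neurod4* at -0.30. Neuron markers were lower for 3 of 10 genes in the *Carm1* line and 6 of 10 in the *Pax3* line, and none were higher by edgeR. Over all genes tested, 7.83% and 10.5% were called as lower in these lines. Presomitic mesoderm, another site of *Dll1*, *Dll3* and *Hes1*, was followed by 8 markers, whose summed level lay between 6.54 and 13.4 CPM over all libraries. Only 5 of the 8 were tested in the *Carm1* line and 4 in the *Pax3* line. *Msgn1*, a defining marker named after its values were seen, was at 0.14 CPM or less. Of those tested only *Fgf8* passed the threshold, in both lines, with log2 fold changes of 0.99 and 0.69. It was called from low levels, 2.96 CPM or less in the *Carm1* line and 3.41 CPM or less in the *Pax3* line. The study's own DESeq2 results for the *Carm1* line did not call *Fgf8*. With the offsets *Fgf8* was at 0.31 in the *Pax3* line (edgeR FDR adjusted *P* = 0.39). Endothelial markers, which go with *Hey1* and *Hey2*, were higher for 3 of 10 genes in each line. Over all genes tested, 5.49% were called as higher in the *Carm1* line and 14% in the *Pax3* line. The medians of these markers were 0.12 in the *Carm1* line and 0.026 in the *Pax3* line, where 5 of the 10 were below 0. With the offsets they were higher for 6 and 1 of 10 genes, where 1963 of all 15811 and 1341 of all 15724 genes tested were. Hepatocyte markers, from the fetal liver, were lower for 8 of 10 genes in *Carm1* KO/KO embryos, with a median of -1.03, and in the *Pax3* line 2 were lower and 1 was higher. The part of these lists in the results for the 10 Notch genes was not tested.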

How the data were processed

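Polyadenylated RNA of whole E12.5 embryos was sequenced in paired reads. Per the labels and the study's methods, the authors aligned reads to mm10 with STAR and counted them on exons with featureCounts, with versions and strand setting not given in the sources used here. The deposited values are raw counts per gene and library, with no pooling. Each line was tested in edgeR (version 4.0.16, R version 4.3.3) by the robust quasi-likelihood test with TMM scaling, filterByExpr, Benjamini-Hochberg adjustment over all genes tested and a threshold of 0.05, and the lines were compared as an interaction over 12 libraries. Tests are two-sided, and were first tested on simulated data. An exact permutation test of 3 against 3 libraries cannot go below *P* = 0.1. The edgeR *P* values set the difference between groups against a spread between embryos that is moderated over all genes. Alternatives were DESeq2 (version 1.42.0), other scaling factors and filters, one fit of all libraries, a replicate block, leaving out each library, a term for Y-linked counts and length and GC offsets (splines with 5 degrees of freedom). Applying the Y-linked term and the offsets together, and to the difference between the lines, was chosen after seeing the data. Correlations used log2 CPM with a prior count of 2. Gene symbols were matched to GENCODE M21 (GRCm38), 21777 as written and 1298 by an older symbol, with 345 unmatched. The 10 genes and all lists were chosen with earlier results of these data known. Genes named besides them are, by rule, the mutated genes and up to 8 other pathway genes per line with the largest fold change past the threshold. The rule also took up to 4 markers per list and the 3 genes closest to each of the 10 in correlation.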

Additional observations from a re-analysis of the deposited data

Results flagged for a closer look

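The test of the difference between the lines flagged 3 of the 10 genes, because the log2 fold change in the *Carm1* line was larger than that in the *Pax3* line at an edgeR FDR adjusted *P* below 0.05. For *Dll1* the difference was 0.35 (adjusted *P* = 0.0044). *Dll1* was higher in 3 of 3 *Carm1* KO/KO libraries than in any wild type. For *Hey2* the difference was 0.45 (adjusted *P* = 0.035), with a positive value in the *Carm1* line that missed the threshold and a fall in the *Pax3* line. For *Notch1* the difference was 0.28 (adjusted *P* = 0.030). Leaving out single libraries took the call from *Notch1* in 7 cases and from *Hey2* in 6, and from *Dll1* in 0 of 12. The lines differ in strain and breeding place, which cannot be told apart from the alleles.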

How the results depend on the processing

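*Dll1*, *Dll3* and *Hes5* in the *Carm1* line, and the difference of *Dll1* between the lines, kept their direction and stayed past the threshold under every alternative run. The number of the 10 genes past the threshold in the *Pax3* line was 2 as reported, 1 with length and GC offsets (*Hes1*), 0 in edgeR with the Y-linked term (3 at an unadjusted *P* below 0.05, and 2 in DESeq2 without that term) and 1 to 3 when single libraries were left out. It was 1 when mutant replicate 1 or 2 or wild-type replicate 2 or 3 was left out. With the offsets and the Y-linked term together, *Hes1* and *Notch1* passed in the *Pax3* line, both as lower. In the *Carm1* line the number was 4, and 3 to 6 over the alternatives, with 6 under the offsets (*Notch3* and *Hey1* added). For the difference between the lines it was 3, 4 with the offsets (*Dll3* added, 0.34), and 1 to 3 without single libraries, with 1 without *Carm1* KO/KO replicate 3, its wild-type replicate 3 or wild-type replicate 2 of the *Pax3* line. All genes past the threshold numbered 2106 in the *Carm1* line, 3265 with the offsets and 1224 to 2290 without single libraries, and 3851 in the *Pax3* line, 2441 with the offsets and 2454 to 4103 without single libraries. The offsets also moved the share of higher genes among those called in the *Carm1* line from 41.2% to 60.1%. The cause of these shifts was not tested.

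Some values changed sign. *Dll3* in the *Pax3* line, 0.19 as reported, was 0.022 with the offsets and -0.021 with offsets and the Y-linked term. For values nearer 0, in the *Pax3* line, the offsets gave -0.024 for *Dll1*, 0.080 for *Jag1* and -0.0044 for *Notch3*. Offsets with the Y-linked term gave -0.061 for *Dll1*, 0.065 for *Jag1* and -0.032 for *Notch3*, and that term alone -0.017 for *Dll1*. In the *Carm1* line the term gave -0.030 for *Jag1* and -0.0037 for *Notch2*, and for the difference the offsets gave -0.020 for *Jag1*. Without single libraries the ranges in the *Pax3* line were -0.043 to 0.092 (*Dll1*), -0.049 to 0.073 (*Hey1*), -0.10 to 0.046 (*Jag1*), -0.14 to 0.015 (*Notch2*) and -0.0071 to 0.13 (*Notch3*). Those in the *Carm1* line were -0.023 to 0.17 (*Hey2*), -0.030 to 0.081 (*Jag1*) and -0.0037 to 0.092 (*Notch2*), and those of the difference -0.027 to 0.20 (*Hes5*) and -0.015 to 0.13 (*Jag1*).

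The labels do not say that replicate numbers pair the samples. Same-numbered mutants and wild types had correlations of their deviations between -0.092 and 0.23, and differently numbered ones between -0.32 and 0.24. These values cannot show whether embryos were littermates, as deviations of 3 libraries from their own mean are not independent. With the replicate number as a block, 1787 genes were called in the *Carm1* line, 5 of the 10 among them, and 4177 in the *Pax3* line, 2 of the 10 among them. Depth limits the genes under about 3 CPM, such as *Hes2*, *Hes3* and, in the *Carm1* line, *Fgf8*.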
